A study of Mus musculus with 10 samples.

Results

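The nuclear-encoded subunits of the oxidative phosphorylation (OXPHOS) machinery were followed over 5 stages of blood cell specification from mouse embryonic stem cells. Genes were taken from the authors' expression matrix by their symbol (Nduf subunits of complex I, Sdh of complex II, Uqcr of complex III, Cox4 to Cox8 subunits of complex IV and Atp5 of complex V). This rule, which uses no measured value, found 82 of the 15686 genes in the matrix, namely 38 for complex I, 4 for complex II, 8 for complex III, 14 for complex IV and 18 for complex V. Complexes I and II feed electrons from NADH and succinate into the respiratory chain of the inner mitochondrial membrane, complex III passes them to cytochrome c, complex IV (cytochrome c oxidase) hands them to oxygen, and complex V uses the proton gradient that results to make ATP. Most subunits are encoded in the nucleus, but complexes I, III, IV and V also hold subunits made from mitochondrial DNA. Several nuclear subunits exist as isoforms used in particular tissues or in low oxygen, and pluripotent cells are known for leaning on glycolysis while carrying a working respiratory chain. The sorting by symbol has exceptions. Cox4i1, Cox4i2 and Cyc1 are subunits outside the pattern and were read as a separate list, Ndufa4 is now counted with complex IV by many authors, and Cox7a2l takes part in respiratory supercomplexes.

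RNA was extracted from nuclei, depleted of ribosomal RNA and sequenced with strand information. ES were undifferentiated HM-1 mouse ES cells. HB were FLK1+ hemangioblast cells, bead-sorted after 3 days of embryoid body culture in serum. The other 3 stages were sorted after a further 2.5 days of blast culture, as KIT+ TIE2+ CD41- cells of the first hemogenic endothelium (HE1), KIT+ TIE2+ CD41+ cells of the second (HE2) and KIT+ TIE2- CD41+ hematopoietic progenitors (HP). All stages derive from 1 cell line, and each was represented by 2 libraries. The labels do not say whether these came from separate cultures, but the study describes the replicates behind its stage means of expression as biologically independent. The p-values measure the spread between these libraries. Libraries held 24920434 to 58782055 counts, for which a floor of 3 counts is 0.0532 to 0.126 CPM (counts scaled to a common library size, here with TMM scaling). This floor covers counting error only.

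The stage labels were compared with marker genes. Pou5f1, Nanog, Zfp42 and Sox2 together stood at 1534 and 1599 CPM in ES and at 1.08 to 5.57 CPM in HE2 and HP libraries, with 5.22 and 58.3 CPM in the HE1 libraries. Kdr, T, Mesp1 and Etv2 stood at 1235 and 1555 CPM in HB against 7.68 and 8.66 CPM in ES. They remained at 728 and 1271 CPM in HE1, 634 and 933 (HE2) and 337 and 346 (HP), so this list does not set HB apart from HE1. Cdh5, Tek, Kit and Pecam1 stood at 352 and 368 CPM in ES and 251 and 279 CPM in HB. They reached 1656 and 2887 CPM in HE1, 1321 and 1861 (HE2) and 711 and 781 (HP). A list of 6 blood genes was at 25.3 and 26.8 CPM in ES and reached 995 to 1394 CPM in HE2 and HP. These are cell populations, so fewer cells of a type and less RNA per cell cannot be told apart. The 13 subunits encoded by mitochondrial DNA were listed at 0 in all 10 libraries, and no level can be read for them.

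In HB, HE2 and HP, most OXPHOS genes differed in the same direction between the libraries of a stage. The 82 genes summed to 7678 and 7508 CPM in the ES libraries, 5684 and 7203 CPM (HB), 5345 and 4762 CPM (HE1), 6756 and 8082 CPM (HE2), and 8463 and 6015 CPM (HP). In HB, 81 of 82 genes had a higher CPM in library 2 than in library 1 (median 1.32-fold). In HE2, 75 of the 80 genes counted in both libraries were higher in library 2, and in HP all 80 counted in both were lower in library 2 (median 0.675-fold). In HE1 the genes were divided, with 31 of 81 higher in library 2 (median 0.944-fold), and ES libraries were close to each other (median 0.985-fold). Malat1, Neat1, Kcnq1ot1 and Meg3, long noncoding RNAs that stay in the nucleus, took 1.01% and 1.04% of counts in ES, 0.505% and 0.414% (HB), 0.563% and 1.12% (HE1), 0.637% and 0.286% (HE2), and 0.416% and 0.675% (HP). In each of the 5 stages, the library with more of these RNAs had the lower OXPHOS sum. Their part in the results below was not tested. The share of a complex within the OXPHOS sum of the same library does not depend on a shift that is equal for all complexes, and is given beside the levels. The shift was not fully equal. In HP the median of library 2 over library 1 was 0.743 for complex II and 0.643 for complex IV, and in HB 1.19 and 1.39.

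**Figure D1:**
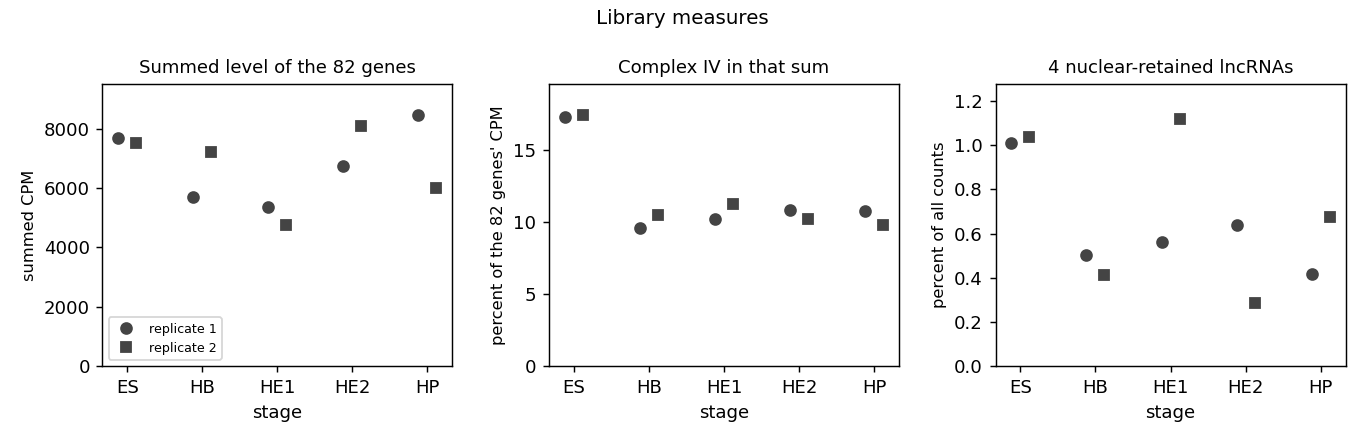
Points are libraries (circles replicate 1, squares replicate 2) at each stage on the x axis. The left panel shows the summed CPM of the 82 genes, the middle panel the percent of that sum on complex IV, which was 17.3 and 17.4% in ES and 9.59 to 11.3% in the 8 other libraries, and the right panel the percent of all counts on Malat1, Neat1, Kcnq1ot1 and Meg3.

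Transcripts of complex IV were lower in every stage after ES, whereas for complexes I, III and V the 2 HE2 libraries lay on either side of ES. Complex IV genes summed to 1320 ± 14.8 CPM in ES (SD, n = 2 here and below), 651 ± 150 (HB), 541 ± 7.13 (HE1), 781 ± 65.9 (HE2) and 752 ± 227 (HP). Complex V genes summed to 3379 ± 52.9 CPM in ES, 3221 ± 481 (HB), 2440 ± 281 (HE1), 3592 ± 500.5 (HE2) and 3534 ± 785 (HP). In HE2 library 1, complexes I, III and V (1667, 680.4 and 3239 CPM) were below both ES libraries, and in library 2 (1957, 789.9 and 3946 CPM) above both. Complex I had 1788 ± 43.3 CPM in ES and 1550 ± 287 (HB), complex II had 405 ± 2.35 and 409 ± 55.9, and complex III had 701 ± 6.60 and 612 ± 100.0. Within the OXPHOS sum, complex IV took 17.4 ± 0.0793% in ES, 10.1 ± 0.650% (HB), 10.7 ± 0.734% (HE1), 10.6 ± 0.445% (HE2) and 10.3 ± 0.670% (HP), and the ES libraries did not overlap the others. Complex V took 44.5 ± 0.00636% in ES and 48.2 to 50.1% on average in the later stages, and complex II took 5.33 ± 0.0533% in ES and 6.32 to 6.71% later. The file lists Atp5o under 2 identifiers that share 243 exon bases, and reads on these were counted for both. All 530 exon bases of the second entry lie in exons of the first or of Donson, so its values are uncertain.

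**Figure D2:**
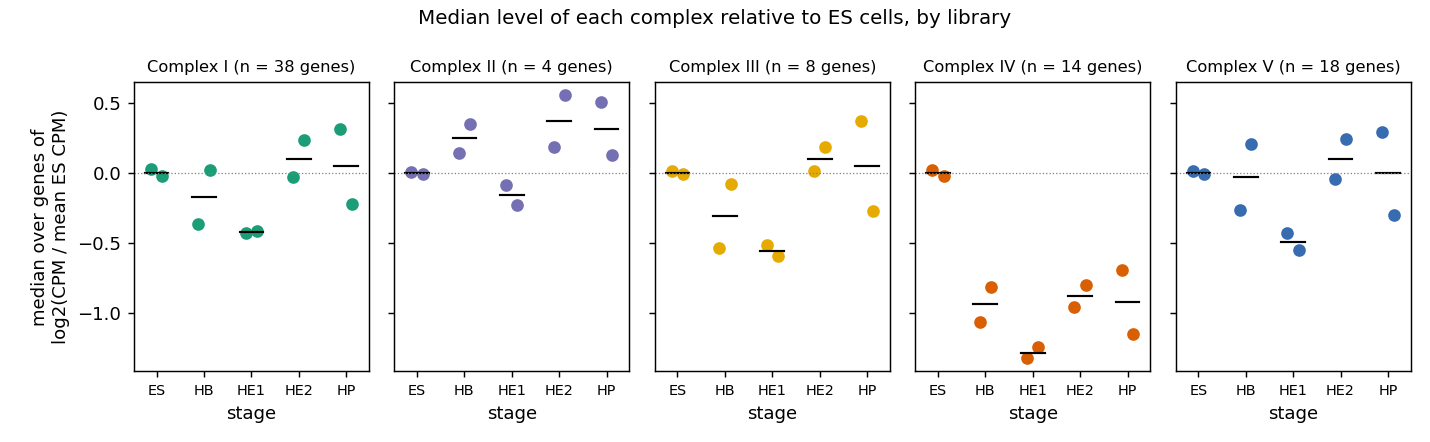
Each panel shows 1 complex, with the stage on the x axis and the median over its genes of log2(CPM / mean ES CPM) on the y axis (0.5 CPM added to both); points are libraries and bars their mean. Complex IV lay between -1.32 and -0.70 in the 8 libraries after ES, whereas the other complexes lay between -0.59 and 0.55.

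Counts were tested with the quasi-likelihood test of edgeR, with Benjamini-Hochberg adjustment over 22596 genes and a call at an adjusted p under 0.05. From ES to HB, 19 of the 82 genes were called lower and 2 higher, against 22.6% and 17.8% of all genes tested, and 8 and 1 of them changed at least 2-fold (17.3% and 11.5% of all genes). From HB to HE1, 7 were lower and 1 higher (14.8% and 17.5% of all genes), with 3 and 0 at least 2-fold (8.19% and 12.7%). From HE1 to HE2, 6 were higher and 0 lower (6.12% and 7.12% of all genes), with 1 and 0 at least 2-fold (3.26% and 5.39%). Between ES and HP, 15 were lower and 5 higher in HP (27.5% and 24.1% of all genes), with 8 and 0 at least 2-fold (21.9% and 16.7% of all genes). Both comparisons with ES share the ES libraries. The test for any difference among the 5 stages called 36 of 82 (43.9%), below the 66.7% of all genes. Counting genes whose libraries did not overlap between the stages, 36 were below and 9 above ES in HB (41% and 37.7% of all genes), 41 below and 1 above HB in HE1 (32.6% and 32.9%), 0 below and 77 above HE1 in HE2 (30.4% and 28.8%), 1 below and 1 above HE2 in HP (13% and 15.8%), and 27 below and 16 above ES in HP (41.7% and 38.4%). The shares called at an adjusted p under 0.05 among the 82 genes were thus near or below those of all genes. By libraries without overlap, 77 of 82 above HE1 in HE2 and 41 of 82 below HB in HE1 exceeded the all-gene shares of 28.8% and 32.6%. The calls were spread unevenly over the complexes. From ES to HB, 9 of the 14 complex IV genes were lower, with a median log2 fold change of -1.09 over the complex. Of the 9, Cox7b2 had 44 counts over the ES libraries and 3 over the HB libraries. It could pass the filter on low counts through ES only, which fixed its direction against ES. This also holds wherever Cox7b2 is counted below ES in what follows. For complex I, 7 of 38 were lower and 1 higher (median -0.15). For complex II, 0 of 4 were called (median 0.25; 1 gene had an unadjusted p under 0.05). For complex III, 1 of 8 was lower (median -0.33), and for complex V, 2 of 18 were lower and 1 higher (median -0.02). The median over all genes was 0.00. Without HB library 1, which had the lower sum, the median over the 82 genes was 0.05 in place of -0.20 and 7 genes were called lower, 6 of them of complex IV. Without HB library 2 the median was -0.42. The medians without library 1 and without library 2 were 0.05 and -0.37 for complex I, 0.24 and -0.26 for complex V, and -0.84 and -1.29 for complex IV.

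**Figure D3:**
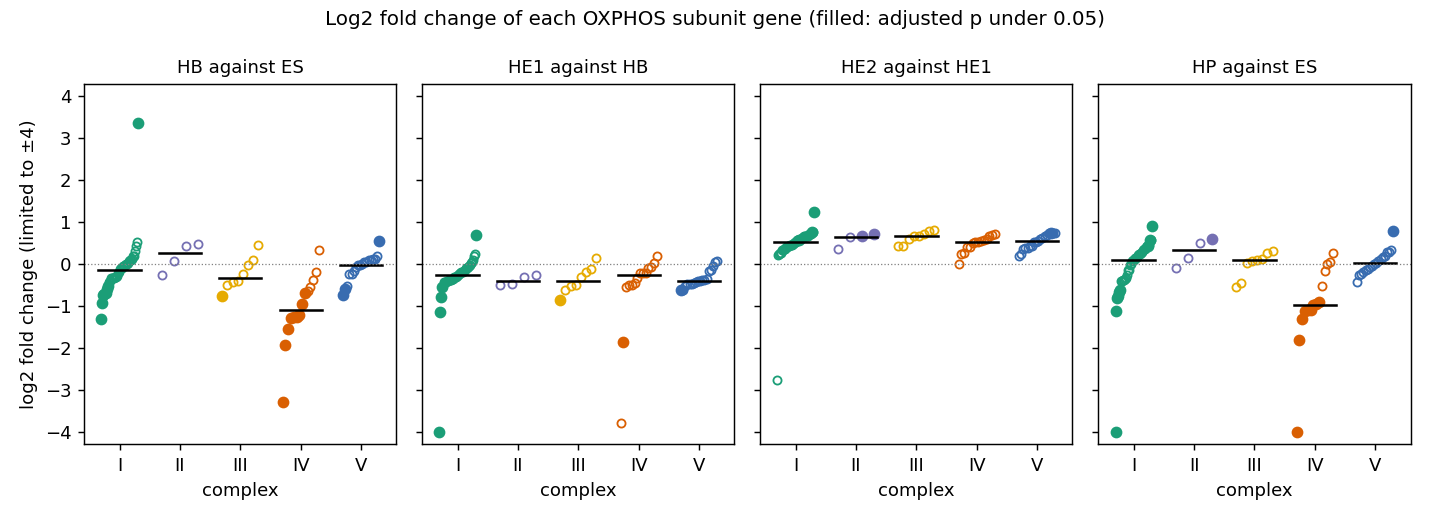
Each point is 1 gene, with its complex on the x axis and its log2 fold change on the y axis (values beyond ±4 are drawn at the limit) for 4 comparisons; filled points have an adjusted p under 0.05 and bars are medians. In HB against ES and HP against ES, 9 of 14 complex IV genes are filled below 0, Cox7b2 among them. In HE2 against HE1, nearly the whole set lies above 0.

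Cox7b, a small subunit of complex IV encoded on the X chromosome (ENSMUSG00000031231, chrX:106015700-106022450 in mm10), changed most among the abundant genes. It had 230 and 223 CPM in ES, 47.9 and 70.5 (HB), 43.8 and 40.0 (HE1), 60.1 and 77.7 (HE2), and 76.3 and 53.2 (HP). Both ES libraries lay above all 8 later ones, without overlap. The log2 fold change was -1.93 ± 0.23 (SE) from ES to HB (edgeR, adjusted p = 9.73e-05) and -1.81 ± 0.23 between ES and HP (adjusted p = 9.06e-05).

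Cox6a1, the broadly used isoform of subunit VIa, had 171 and 176 CPM in ES, 46.9 and 71.4 (HB), 58.3 and 52.7 (HE1), 87.4 and 90.6 (HE2), and 102 and 60.5 (HP). It fell by 1.55 ± 0.25 on the log2 scale from ES to HB (edgeR, adjusted p = 0.0007) and was 1.09 ± 0.25 below ES in HP on that scale. Cox5a, which belongs to the ring of nuclear subunits around the catalytic core, had 156 CPM in both ES libraries, 57.0 and 73.4 (HB), 56.5 and 55.6 (HE1), 72.5 and 90.2 (HE2), and 93.8 and 63.8 (HP). Its log2 fold change was -1.26 ± 0.20 (HB) (edgeR, adjusted p = 0.000704) and -0.98 ± 0.20 (HP) against ES (adjusted p = 0.0021). For both genes, the 2 ES libraries lay above all 8 others.

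The same order held for further complex IV genes, named here after their values were seen. Cox7c had 141 and 137 CPM in ES and 40.2 to 78.9 CPM in the later libraries, Cox6c 126 and 122 CPM in ES and 43.7 to 78.2 later, Cox7a2 93.6 and 95.2 CPM in ES and 33.1 to 59.7 later, and Cox8a 141 and 136 CPM in ES and 56.9 to 117 later. From ES to HB the log2 fold changes were -1.28 for Cox7c, -1.23 for Cox6c, -0.96 for Cox7a2 and -0.69 for Cox8a (edgeR, adjusted p = 0.00117, 0.000896, 0.00864 and 0.0246). In Cox7c, 19.6% of 75-base stretches of its transcripts also occur in another gene, so that reads from there may not have been counted. In all, 10 of the 14 complex IV genes had all 8 later libraries below both ES libraries, against 11 of 38 in complex I, 0 of 4 in complex II, 1 of 8 in complex III and 2 of 18 in complex V, and 26.3% of all genes tested. The 10 include Cox7b2, which passed the filter on low counts through ES only. All 8 later libraries were above both ES libraries for 1 of the 82 genes, Atp5h, against 19.4% of all genes.

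Other complex IV genes were not called. Cox5b, a zinc-binding subunit of the complex, had 88.6 and 89.2 CPM in ES, 51.1 and 70.1 (HB), 53.0 and 62.7 (HE1), 72.8 and 89.9 (HE2), and 98.1 and 60.0 (HP). Both HB libraries lay below both ES libraries, but the log2 fold change of -0.55 ± 0.24 from ES to HB did not pass the test (edgeR, adjusted p = 0.086). Cox6b1 had 101 and 96.0 CPM in ES and 70.6 and 103 CPM (HB), and Cox7a2l had 49.2 and 45.9 CPM in ES and 52.1 and 67.3 CPM in HB, so that the groups overlapped for the first and did not for the second. Neither was called (log2 fold changes of -0.18 and 0.33, edgeR, adjusted p = 0.546 and 0.253). The gene listed as Cox5b-ps stayed between 2.15 and 4.60 CPM and shares 43.0% of its 75-base stretches with another gene, so its values are uncertain.

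Tissue-restricted isoforms were at low levels. Cox6b2, the testis isoform of subunit VIb, had 26.1 and 25.9 CPM in ES, 10.1 and 11.3 (HB), 8.29 and 7.46 (HE1), 10.9 and 7.46 (HE2), and 14.8 and 9.47 (HP), with a log2 fold change of -1.28 ± 0.26 from ES to HB (edgeR, adjusted p = 0.00268). Per kilobase of exon it made up 14.2% and 14.7% of the Cox6b pair in ES and 4.12% to 8.42% later. Cox7a1, the heart and muscle isoform of subunit VIIa, had 3.90 and 3.70 CPM in ES, 1.82 and 3.04 (HB), 0.463 and 0.859 (HE1), 1.19 and 0.825 (HE2), and 1.57 and 1.49 (HP), and it fell by 1.86 ± 0.46 on the log2 scale from HB to HE1 (edgeR, adjusted p = 0.0118). It was also lower in HP than in ES (log2 fold change -1.31 ± 0.42, adjusted p = 0.0246). Cox7b2, the testis relative of Cox7b, had 44 counts over the ES libraries (0.479 and 0.488 CPM), 3 counts over the HB libraries and 0 counts in the 6 libraries of HE1, HE2 and HP. The ES level was 10.6 times the HB level (95% exact counting interval 3.39 to 53.2) and at least 12.1-fold higher than in HP, taking 3 counts over the HP libraries as the limit. Cox7b2 was called lower in HB than in ES, but this call was lost with DESeq2 and when replicate number was added to the model. Markers of heart and skeletal muscle (8 genes, among them Myh6, Tnnt2 and Myod1) summed to 245 and 250 CPM in ES, 23.4 and 23.5 CPM in HB, 33.7 and 104 CPM (HE1), 9.49 and 19.6 CPM in HE2, and 10.9 and 15.6 CPM in HP. They were high in ES like Cox7a1, but were higher in HE1 than in HB, where Cox7a1 was lower. Their part in the Cox7a1 values was not tested.

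**Figure D4:**
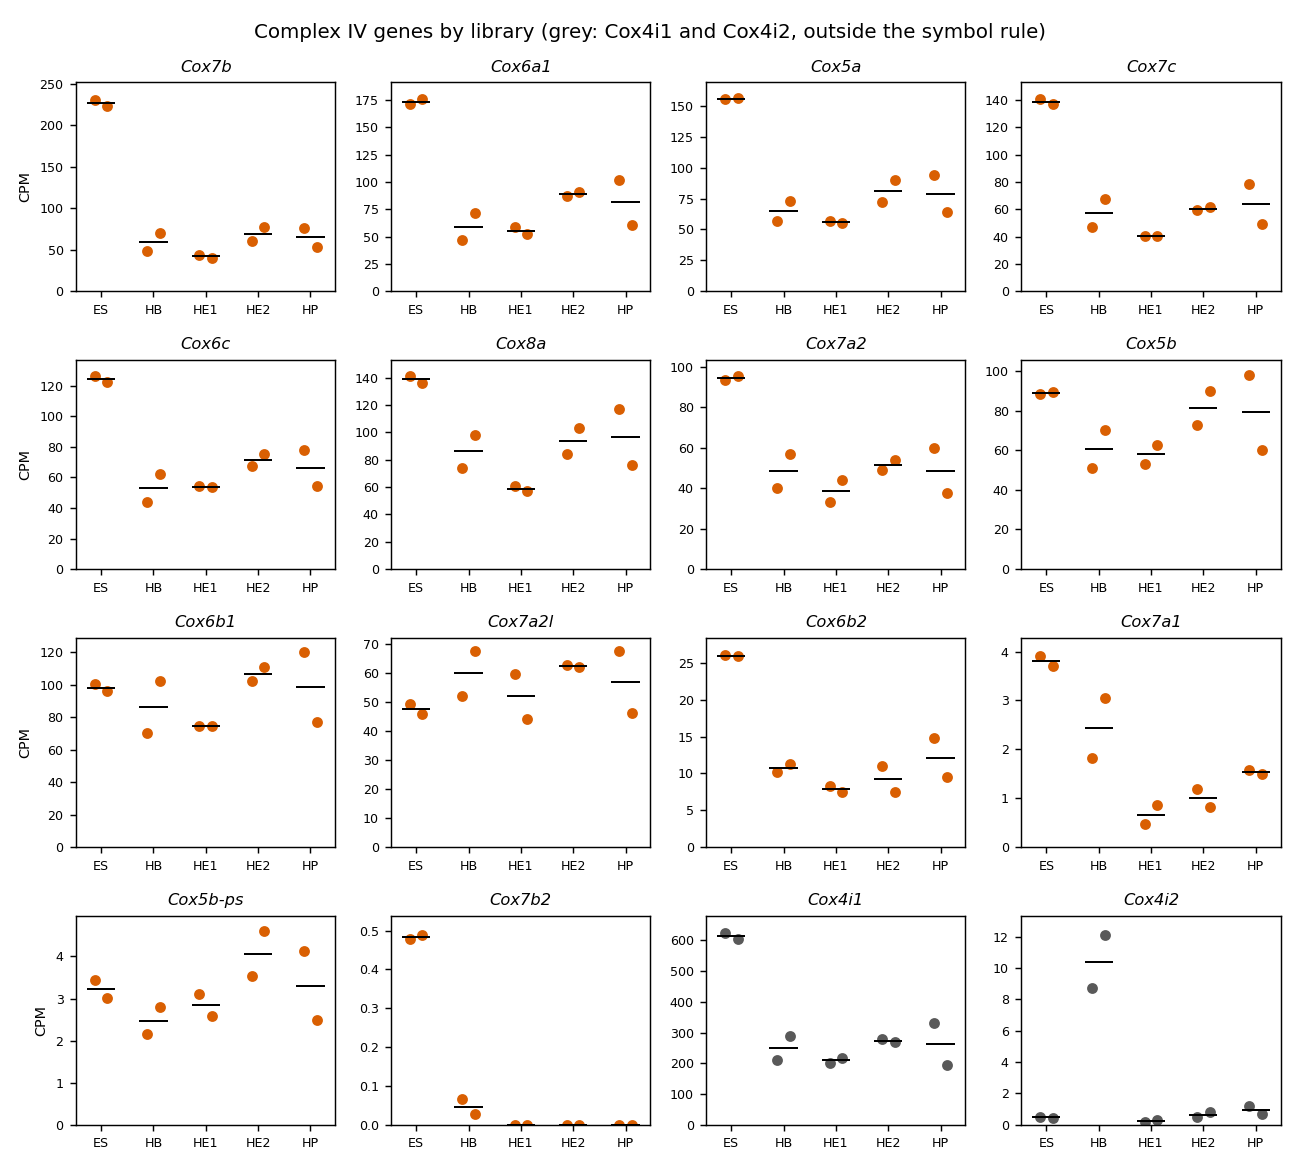
CPM (y axis, from 0) of the 14 complex IV genes and, in grey, of Cox4i1 and Cox4i2 at each stage (x axis); points are libraries and bars their mean. Cox7b, Cox6a1, Cox5a, Cox7c, Cox6c, Cox8a, Cox7a2 and Cox4i1 have both ES libraries above the 8 later libraries.

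Cox4i1, the ubiquitous subunit IV, lies outside the symbol pattern and had the highest level of the complex IV genes read here in CPM. It had 626 and 603 CPM in ES, 212 and 288 (HB), 203 and 217 (HE1), 278 and 270 (HE2), and 330 and 195 (HP). Its log2 fold change was -1.30 from ES to HB and -1.22 between ES and HP (edgeR, adjusted p = 0.00143 and 0.0014). Cyc1, the heme-bearing cytochrome of complex III, also outside the pattern, had 180 and 177 CPM in ES and 105 and 113 CPM in HB (log2 fold change -0.71, edgeR, adjusted p = 0.00858). With 1 library left out, this change of Cyc1 was -0.76 to -0.63. Among the 6 genes of this list, HB cells had 3 lower and 1 higher than ES (50% and 16.7%, against 22.6% and 17.8% of all genes), 2 were lower from HB to HE1 (33.3%, against 14.8%), 1 was higher from HE1 to HE2 (16.7%, against 6.12%), and 3 were lower in HP than in ES (50%, against 27.5%). The gene higher in HE2 was Cycs, cytochrome c (0.68), whose call was lost in 9 of 10 fits without 1 library and in 4 of 6 other alternatives. The third gene lower in HP, beside Cox4i1 and Cyc1, was Cyct, the testis cytochrome c, with 2.29 and 2.38 CPM in ES and 1 count over both HP libraries (ratio 175, counting interval 31.1 to 6941). Atpif1, the inhibitor of complex V, was called in none of these comparisons and had 78.4 and 71.9 CPM in ES and 52.4 and 69.9 CPM in HB.

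Promoter windows were compared because 9 of 14 complex IV genes but 2 of 18 complex V genes were lower in HB cells than in ES. RefSeq (GRCm38.p6) gave a window from 250 bases before to 50 bases after the start for 69 of the 82 genes. The letters CCGGAAG (the ETS motif, which GABP binds), the NRF1 palindrome (GCGCA, any base, then GCGC), AAGATGGC (YY1) and AAGGTCA (estrogen-related receptors, ERR) were searched on both strands. ETS and YY1 matches can overlap over the letters AAG. The ETS letters were in 24.6% of the 69 genes against 9.93% of all 27025 genes with a window, NRF1 in 26.1% against 5.19%, YY1 in 14.5% against 3.19%, and ERR in 11.6% against 5.38%. Of the 12 complex IV genes with a window, 3 held the ETS letters, 1 held NRF1 (Cox6a1) and 0 held YY1 or ERR. Of 16 complex V genes, 6 held ETS, 7 NRF1, 3 YY1 and 4 ERR. The 2 identifiers of Atp5o share 1 window with NRF1 letters, which is counted for both here and among the 69 genes. Among genes lower in HB than in ES, 5 of 16 held ETS (31.2%) and 4 held NRF1 (25.0%), against 22.6% and 26.4% of the other 53. YY1 was in 6.25% against 17% and ERR in 12.5% against 11.3%. The 200 bases before the start are printed for 3 complex IV genes with large decreases and for 2 complex V genes that were not called in HB, with matches in capitals; they were chosen after the values were seen. Cox7b (chrX:106015500-106015699, plus strand) and Cox5a (chr9:57521032-57521231, plus strand) have no match, Cox6a1 (chr5:115348959-115349158, minus strand) has NRF1 letters at -162 and -117 and ETS letters at -16, Atp5g3 (chr2:73911327-73911526, minus strand) has ERR letters at -52, and Atp5e (chr2:174464102-174464301, minus strand) has ETS letters at -102, each counted at the first base of the match from the start site. Within the window but after the start, Atp5g3 also has NRF1 letters at 12 and Atp5e ERR letters at 24, which are not printed. No match says only that these letters are not in this window.
Cox7b: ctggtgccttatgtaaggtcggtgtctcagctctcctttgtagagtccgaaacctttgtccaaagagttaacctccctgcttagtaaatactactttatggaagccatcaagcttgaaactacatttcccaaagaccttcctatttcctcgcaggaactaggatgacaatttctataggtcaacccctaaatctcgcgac
Cox5a: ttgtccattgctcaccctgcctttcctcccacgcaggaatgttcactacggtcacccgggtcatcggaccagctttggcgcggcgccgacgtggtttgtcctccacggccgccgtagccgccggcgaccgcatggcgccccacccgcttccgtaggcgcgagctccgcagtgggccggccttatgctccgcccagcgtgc
Cox6a1: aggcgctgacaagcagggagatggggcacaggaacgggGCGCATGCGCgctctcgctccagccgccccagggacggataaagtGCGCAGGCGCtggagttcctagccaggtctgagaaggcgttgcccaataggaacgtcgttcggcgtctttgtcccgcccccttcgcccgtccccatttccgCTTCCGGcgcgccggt
Atp5g3: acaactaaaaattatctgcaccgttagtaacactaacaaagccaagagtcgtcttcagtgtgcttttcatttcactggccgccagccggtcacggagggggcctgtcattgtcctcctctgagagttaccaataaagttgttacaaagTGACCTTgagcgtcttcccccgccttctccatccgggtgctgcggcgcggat
Atp5e: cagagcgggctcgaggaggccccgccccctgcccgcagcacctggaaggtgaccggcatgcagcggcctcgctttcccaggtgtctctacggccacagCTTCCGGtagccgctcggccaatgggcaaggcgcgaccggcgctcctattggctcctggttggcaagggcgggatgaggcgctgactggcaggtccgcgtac

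In complex I, Ndufa4l2 had a single peak in HB. Its product is related to NDUFA4 and is known as a target of the hypoxia-inducible factor HIF-1 that lowers respiratory activity. It (ENSMUSG00000040280, chr10:127514967-127517154 in mm10) had 2.98 and 3.13 CPM in ES, 29.3 and 33.5 (HB), 0.0421 and 0.396 (HE1), 0 and 0.0635 (HE2), and 0.114 and 0 (HP). The HB libraries lay far above all others. It rose 10.3-fold from ES to HB (log2 fold change 3.36 ± 0.53, edgeR, adjusted p = 0.000615) and fell by 7.04 ± 0.69 on the log2 scale to HE1 (adjusted p = 6.92e-05). With 13 counts over the HE1 libraries, the HB level was 131 times the HE1 level (counting interval 76.6 to 247). Per kilobase of exon, Ndufa4l2 made up 40.0% and 33.6% of the Ndufa4 pair in HB, 3.97% and 4.40% in ES and at most 0.909% in the later libraries. Ndufa4 itself had 90.9 and 85.7 CPM in ES and 55.4 and 83.7 CPM in HB, and was not called (log2 fold change -0.34 ± 0.23, adjusted p = 0.269). Cox4i2, the isoform of subunit IV that is also known to respond to low oxygen, also had its high values in HB. It had 0.532 and 0.430 CPM in ES, 8.73 and 12.1 (HB), 0.168 and 0.330 (HE1), 0.488 and 0.794 (HE2), and 1.23 and 0.668 (HP), with log2 fold changes of 4.41 from ES to HB and -5.33 from HB to HE1 (edgeR, adjusted p = 6.32e-05 and 8.04e-05). It made up 7.48% and 7.63% of the Cox4 pair per kilobase in HB and at most 0.729% in the other 8 libraries.

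**Figure D5:**
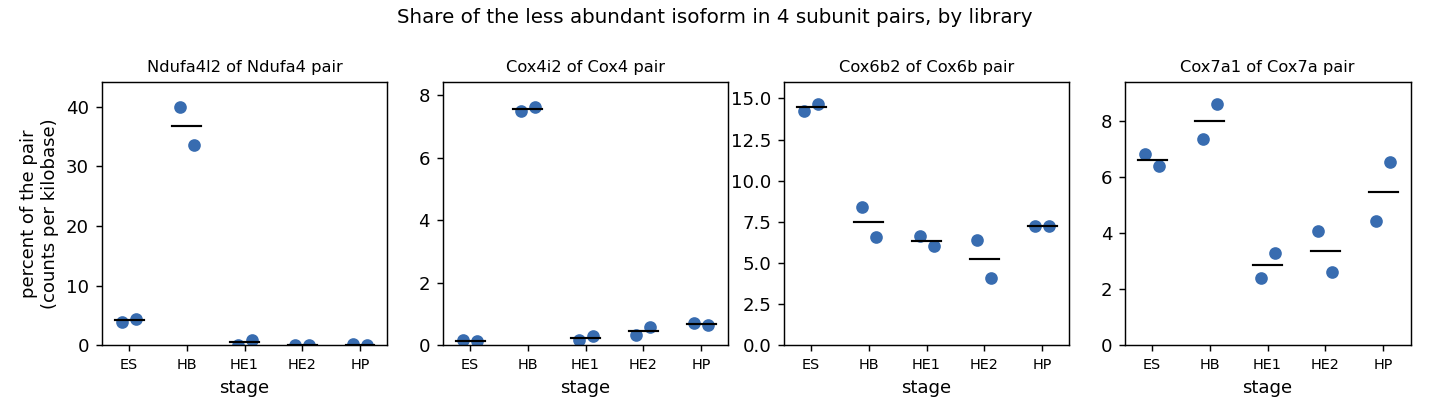
Percent of an isoform within its pair, from counts per kilobase of exon (y axis, from 0), at each stage (x axis); points are libraries and bars their mean. Ndufa4l2 (34 to 40%) and Cox4i2 (7.48 and 7.63%) have their high values in HB, whereas Cox6b2 is high in ES and Cox7a1 is low in HE1 and HE2.

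Other complex I genes changed less. Ndufb9, an accessory subunit, had 98.1 and 92.4 CPM in ES, 30.2 and 46.2 (HB), 34.1 and 37.5 (HE1), 54.3 and 59.6 (HE2), and 68.3 and 40.9 (HP), with a log2 fold change of -1.32 ± 0.25 from ES to HB (edgeR, adjusted p = 0.00188). Of its exon bases, 19.5% are shared with the predicted gene Gm49356, on which such reads were counted too. Ndufa11, Ndufb4, Ndufs6, Ndufb6 and Ndufa13 were also lower in HB, with log2 fold changes of -0.93 to -0.60. Ndufa7, an accessory subunit of the matrix arm, fell in the next step. It had 86.6 and 87.2 CPM in ES, 59.5 and 72.6 (HB), 29.2 and 30.9 (HE1), 37.5 and 41.8 (HE2), and 47.5 and 32.3 (HP), and its log2 fold change from HB to HE1 was -1.14 ± 0.19 (edgeR, adjusted p = 0.00157). Ndufv3 and Ndufs3 were also lower in HE1 than in HB (-0.79 and -0.54). Ndufa8, an accessory subunit of the intermembrane space, went the other way, with 27.1 and 24.1 CPM in ES, 22.3 and 35.6 (HB), 51.9 and 41.8 (HE1), 61.0 and 65.0 (HE2), and 57.1 and 39.3 (HP). It was higher in HE1 than in HB (0.69 ± 0.24, adjusted p = 0.0499) and in HP than in ES (0.91 ± 0.24, adjusted p = 0.00884). The first call was lost in 7 of 10 fits without 1 library, where the log2 fold change was 0.33 to 1.03. The subunits that carry the redox centers were not called from ES to HB. Ndufv1, which binds NADH and flavin, had 98.3 and 92.0 CPM in ES, 94.8 and 111 (HB), 91.5 and 70.6 (HE1), 107 and 111 (HE2), and 144 and 93.8 (HP), and was called in none of the comparisons. Ndufs1, which carries iron-sulfur clusters, had 137 and 136 CPM in ES, 109 and 127 (HB), 107 and 83.0 (HE1), 127 and 157 (HE2), and 153 and 141 (HP). Between ES and HP, 6 complex I genes were lower and 3 higher (Ndufa8, Ndufs7 and Ndufa10), with a median of 0.10. Without HP library 1 the median was -0.23 and 0 of the 82 genes were called higher, and without HP library 2 the median was 0.32.

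Complex II, which is also succinate dehydrogenase of the citric acid cycle, had all 4 genes lowest in HE1 and highest in HE2 by stage mean. Sdha, the flavoprotein with the catalytic site, had 241 and 240.3 CPM in ES, 179 and 223 (HB), 182 and 153 (HE1), 238 and 309 (HE2), and 291 and 244 (HP). Sdhb, the iron-sulfur subunit, had 52.6 and 53.0 CPM in ES, 51.8 and 59.3 (HB), 44.8 and 44.5 (HE1), 51.6 and 61.9 (HE2), and 58.8 and 40.1 (HP). The membrane anchors were Sdhc, with 50.6 and 49.0 CPM in ES, 62.4 and 72.3 (HB), 53.1 and 42.9 (HE1), 66.0 and 83.8 (HE2), and 83.4 and 58.4 (HP), and Sdhd, with 62.0 and 61.0 CPM in ES, 76.1 and 93.7 (HB), 63.9 and 55.4 (HE1), 80.9 and 108 (HE2), and 104 and 82.0 (HP). HE1 and HE2 libraries did not overlap for any of the 4. Sdha and Sdhd rose from HE1 to HE2 (log2 fold changes 0.71 ± 0.18 and 0.66 ± 0.19, edgeR, adjusted p = 0.0346 and 0.0436), whereas Sdhc and Sdhb did not pass the test (0.64 and 0.35, adjusted p = 0.0568 and 0.205). The calls of Sdha and Sdhd were lost with only the 4 libraries of these stages and in 4 and 6 of 10 fits without 1 library, those without HE1 library 2 and without HE2 library 2 included. Sdhd was also higher in HP than in ES (0.60 ± 0.19, adjusted p = 0.0197).

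In complex III, Uqcr11, a small accessory subunit, was lower in HB (50.6 and 53.8 CPM in ES, 25.0 and 36.3 CPM in HB, log2 fold change -0.77 ± 0.24, edgeR, adjusted p = 0.024). Uqcrh, the hinge protein that contacts cytochrome c1, had 58.0 and 57.9 CPM in ES, 47.4 and 65.9 (HB), 30.8 and 31.7 (HE1), 45.9 and 52.6 (HE2), and 50.6 and 34.1 (HP), and fell by 0.86 ± 0.21 on the log2 scale from HB to HE1 (edgeR, adjusted p = 0.0116). Uqcrc1, a core protein, had 237 and 236 CPM in ES, 168 and 188 (HB), 167 and 146 (HE1), 219.9 and 255 (HE2), and 279 and 198 (HP). It was called in none of the comparisons between stages, but passed the test over the 5 stages (edgeR, adjusted p = 0.029). Uqcrfs1, the Rieske iron-sulfur protein, had 65.3 and 64.4 CPM in ES, 76.5 and 99.6 (HB) and 66.1 and 56.6 (HE1), and missed the threshold from HB to HE1 (-0.52 ± 0.18, edgeR, adjusted p = 0.051).

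Complex V was the most abundant by summed CPM, with 18 of 18 genes under 2-fold between their highest and lowest stage means, against 4 of 14 in complex IV. Atp5b, the catalytic beta subunit, had 1336 and 1294 CPM in ES, 1063 and 1259 (HB), 949.8 and 793 (HE1), 1132 and 1376 (HE2), and 1436 and 1075 (HP), and was called in none of the comparisons. Atp5h, the d subunit of the peripheral stalk, had 69.0 and 62.5 CPM in ES, 85.6 and 106 (HB), 91.2 and 82.0 (HE1), 105 and 117 (HE2), and 135 and 90.6 (HP). It was higher in HB (0.54 ± 0.19, edgeR, adjusted p = 0.0454) and in HP (0.78 ± 0.19, adjusted p = 0.00656) than in ES. The call in HB was lost in 5 of 10 fits without 1 library, and that in HP in 2 of 10. Atp5l, the g subunit, was lower in HB than in ES (51.9 and 51.2 CPM against 32.4 and 35.7 CPM, -0.60 ± 0.14, adjusted p = 0.00563), and Atp5c1, the gamma subunit of the rotor, fell by 0.62 ± 0.18 on the log2 scale from HB to HE1 (adjusted p = 0.0231). The 3 genes Atp5g1, Atp5g2 and Atp5g3 encode the same mature ring subunit c. Per kilobase of exon, Atp5g3 made up 61.8% to 66.8% of their sum in the 10 libraries. The share of Atp5g1 was 9.68% and 10.1% in ES and 6.90% and 6.84% (HB), and this gene was lower in HB (70.0 and 74.3 CPM against 37.1 and 48.6 CPM, -0.75 ± 0.23, edgeR, adjusted p = 0.022). By counts not divided by exon length, its share was 20.6% and 21.5% in ES and 15.3% and 15.2% in HB, so the level of the share depends on the unit. Atp5g2 shares 35.8% of its 75-base stretches with other genes, so its share is uncertain.

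HE1 was the low point of the series. By stage mean, 65 of the 82 genes were lowest in HE1 and 0 were highest there. Marker sums of other cell types changed over the same stages. Smooth muscle genes had 9.30 and 14.1 CPM in HB, 614 and 920 (HE1) and 400 and 641 (HE2). Erythroid genes had 6.71 and 7.47 CPM in HB, 258 and 531 (HE1) and 1659 and 2163 (HE2). The part of these cell types in the OXPHOS values was not tested. From HB to HE1, 71 genes had a negative log2 fold change (median -0.32). Without HB library 1 there were 81 (median -0.60), and without HB library 2 there were 55 (median -0.12). From HE1 to HE2, 80 had a positive one (median 0.54, against -0.08 over all genes), with both HE2 libraries above both HE1 libraries in 77 genes (28.8% of all genes). Of these, 6 were called, namely Ndufb1-ps (8.08 and 7.79 CPM in HE1, 17.4 and 20.1 CPM in HE2, 1.24 ± 0.28, edgeR, adjusted p = 0.0233), Ndufs7 (0.76), Atp5g3 (0.73), Sdha (0.71), Sdhd (0.66) and Ndufs1 (0.57). Unadjusted edgeR p-values were under 0.05 for 47 of the 82 genes higher and 1 lower, against 3549 higher and 4442 lower among all 22596 genes tested. Of the 82 genes, 0 were called with only the 4 libraries of these stages, without HE1 library 2 or without HE2 library 2, while DESeq2 called 23 higher. Genes of cytosolic ribosomal proteins had medians of the same sign in these steps. From HB to HE1, 53 of 80 were lower (66.2%, against 14.8% of all genes, median -0.74). From HE1 to HE2 their median was 0.52, with 2 called higher and 1 lower (2.5% and 1.25%, against 6.12% and 7.12% of all genes). From ES to HB their median was 0.02, with 6 lower (7.5%, against 22.6% of all genes) and 0 higher. The 4 nuclear-retained RNAs had opposite medians of 1.11 from HB to HE1 (2 called higher) and -1.34 from HE1 to HE2 (2 called lower). Their median from ES to HB was -0.83, of the same sign as the -0.20 over the 82 genes. Their part in the HE1 values was not tested. The share of complex IV in the OXPHOS sum was 10.2% and 11.3% (HE1) and 10.9% and 10.2% (HE2).

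Between HE2 and HP, 0 of the 82 genes were called in either direction by edgeR, as were 0% of all genes, and 0 of the 82 had an unadjusted p under 0.05. DESeq2 and limma-voom also called 0 of the 82, while calling 154 and 39 of all genes higher and 311 and 27 lower. By edgeR, 670 of all genes had an unadjusted p under 0.05 and were higher and 1113 lower. The median over the 82 genes was -0.07, but with 80 of 82 counted in both HP libraries and all lower in the second, the median was 0.19 without HP library 2 and -0.40 without HP library 1.

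Compared per kilobase of exon over the 10 libraries, the mean level was highest for Atp5b in complex V (276 CPM per kilobase), Cox8a in complex IV (153), Uqcr10 in complex III (103) and Sdhd in complex II (63.9). It was lowest for Atp5l (6.41), Cox7b2 (0.196), Uqcrq (28.1) and Sdhc (19.1) in the same order, and for Ndufb2 (3.36) in complex I. These levels are of nuclear RNA and of whole exon models.

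Genes that build or serve the complexes were read as separate lists. Of 52 assembly factors, HB cells had 1 higher (1.92%) and 4 lower (7.69%) than ES, against 17.8% and 22.6% of all genes, with a median log2 fold change of 0.05. Taco1, an activator of translation of a mitochondrially encoded complex IV subunit, rose (1.17, edgeR, adjusted p = 0.00145) and Cox17, a copper chaperone of complex IV, fell (-0.87, adjusted p = 0.0236). With 1 library left out, the change of Cox17 was -1.09 to -0.65. Between ES and HP, 16 were higher (30.8%, against 24.1% of all genes) and 3 lower (5.77%, against 27.5%), with a median of 0.25, with Taco1 (1.32) and Ndufaf8 (1.20), a complex I factor, changing most. Split by symbol after the values were seen, HP cells had 9 of the 23 factors of complex IV higher and 1 lower than ES (median 0.22), and of the other 29 factors 7 were higher and 2 lower (median 0.30). Of the 16 assembly factors higher in HP, 8 were lost without HP library 1, 7 without ES library 1 and 10 without ES library 2, among them 5, 4 and 5 of the 9 that serve complex IV. Among complex IV subunit genes, 9 of 14 were lower and 0 higher (median -0.97). From HB to HE1, 1 assembly factor was higher (Cox18, 0.84) and 1 lower (Nubpl, -0.95), or 1.92% each way against 17.5% and 14.8% of all genes. From HE1 to HE2, 5 were higher (9.62%, against 6.12% of all genes) and 0 lower, with Cmc2 (0.94) and Ndufaf7 (0.88) changing most. In that step the median was 0.44 over the assembly factors and 0.52 over complex IV. Calls from HE1 to HE2 in these lists were lost with only the 4 libraries of these stages.

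Among 18 tested regulators of mitochondrial biogenesis, HB cells had 3 higher (16.7%) and 4 lower (22.2%) than ES, shares near those of all genes (17.8% and 22.6%). Esrrb, a pluripotency factor of the ERR family, fell by 5.82 on the log2 scale, and its relative Esrrg rose by 3.73 (edgeR, adjusted p = 5.8e-05 and 0.00609). From HB to HE1, 7 were lower (38.9%, against 14.8% of all genes) and 0 higher, with Esrrg (-2.35) and the coactivator Ppargc1b (-2.02) changing most, and Tfam, which packages mitochondrial DNA, among them (-0.85, adjusted p = 0.00525). Of these 7 calls, 4 were lost without HB library 2, and 3 each without HB library 1 and without HE1 library 2. The call of Esrrg was lost in 8 of 10 fits without 1 library, and in 3 of 6 other alternatives. From HE1 to HE2, 1 was higher (Twnk, the helicase of mitochondrial DNA, 0.68) and 1 lower (Esrrb, -3.99), or 5.56% each way against 6.12% and 7.12% of all genes. Both calls were lost with only the 4 libraries of these stages. With 1 library left out, the change of Esrrb was -4.76 to -1.80. The ES markers were at 5.22 and 58.3 CPM in the HE1 libraries, and their part in this fall was not tested. Between ES and HP, 1 was higher (Gabpb1, 5.56%) and 5 lower (27.8%), against 24.1% and 27.5% of all genes. Esrrb (ES 957 times HP, counting interval 674 to 1409) and Ssbp1 (-1.25) changed most. Of 18 genes of the citric acid cycle and pyruvate dehydrogenase, HB cells had 3 higher and 3 lower than ES, or 16.7% each way (among them Idh3g, -0.89). HE1 cells had 6 lower and 0 higher than HB (33.3% lower, against 14.8% of all genes, with Suclg2 -0.92, Idh3g -0.81). HE2 cells had 5 higher and 0 lower than HE1 (27.8% higher, against 6.12%, with Suclg2 1.08, Ogdh 0.66). These 5 calls were lost with only the 4 libraries of HE1 and HE2. HP cells had 6 higher and 2 lower than ES (33.3% and 11.1%, against 24.1% and 27.5%, with Ogdh 1.11, Idh3g -0.96). All 6 calls from HB to HE1 were lost without HB library 2, and 4 without HE1 library 2. Of the 6 higher in HP, 3 each were lost without HP library 1 and without ES library 1, and 2 without ES library 2.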

How the data were processed

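Nuclear RNA-seq libraries of 5 stages, 2 each, were used as deposited. The authors removed ribosomal reads with RiboDetector, trimmed with Trimmomatic, aligned to mm10 with HISAT2 2.2.1 and deposited raw counts per gene from featureCounts 2.0.1, counted on the reverse strand over Ensembl GRCm38 release 102 exons. A fragment over several genes was counted for each, and multimapped reads were not counted. The deposited matrix of stage means holds values normalized by the authors (a score resembling CPM, not used as a value), and only its gene list was used here.

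Stages were taken from the sample labels. Counts of 24920434 to 58782055 per library were filtered with filterByExpr, scaled with TMM (factors 0.954 to 1.13) and fitted in edgeR 4.0.16 with R 4.3.3 as 1 quasi-likelihood model of 10 libraries with 5 residual degrees of freedom. Benjamini-Hochberg adjustment ran over 22596 genes, a call needed an adjusted p under 0.05, and all 82 members were tested. The scripts were tested on simulated data. Intervals of ratios of counts are exact and cover counting error only. Alternatives were limma-voom (limma 3.58.1), DESeq2 1.42.0, library totals instead of TMM, unfiltered counts, only the 4 libraries compared, a replicate block, and leaving out each library.

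The members and gene lists were chosen with earlier results of these data known. Genes named are catalytic or core subunits, isoform families, all Sdh genes, in each comparison the 4 called members with the largest change in each direction, the highest and lowest level in each complex, and the 2 called genes with the largest change in each other list. Others were named after their values were seen. RefSeq windows (GRCm38.p6) matched 69 of the 82 genes by symbol or identifier. Some items that this rule names are not reported here.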

Additional observations from a re-analysis of the deposited data

How the results depend on the processing

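No log2 fold change of a called member reversed under any alternative. Against 2 genes higher and 19 lower from ES to HB, the number higher was 7 when libraries were scaled by total counts instead of TMM, 4 with no filter on low counts, 9 with only the 4 libraries compared and 1 with the replicate block. Leaving out 1 library gave 1 to 4 higher and 7 to 23 lower, the 7 without HB replicate 1. From HB to HE1 (1 higher, 7 lower), 0 were higher with the replicate block, and 12 were lower with total counts and 19 with no filter. Leaving out 1 library gave 0 to 1 higher and 2 (without HB replicate 2) to 14 (without HB replicate 1) lower. From HE1 to HE2 (6 higher, 0 lower), 23 were higher with DESeq2, 11 with total counts, 46 with no filter, 0 with only the 4 libraries and 1 with the replicate block, and 1 was lower with no filter. Leaving out 1 library gave 0 to 20 higher and 0 to 1 lower. Between HE2 and HP, 0 were called in each fit. Between ES and HP (5 higher, 15 lower), 10 were higher with total counts, 8 with only the 4 libraries and 3 with the replicate block. Leaving out 1 library gave 0 (without HP replicate 1) to 9 (without HP replicate 2) higher and 9 (without HP replicate 2) to 22 lower. The test over the 5 stages called 56 of 82 with no filter in place of 36, and 22 to 51 when 1 library was left out. The cause of these differences was not tested. Complex IV genes lower in HB than in ES numbered 8 to 10 over the other alternatives and 6 to 10 with 1 library left out, and in HP 9 to 10 and 7 to 9.

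Same-numbered libraries did not deviate together (correlations of -0.32 to 0.21 over 10 pairs of stages, 2 over 0.1), so the numbers were not taken to pair the samples. Using only the 4 libraries of HE1 and HE2, 68.4% of calls over all genes were higher, against 46.3% with all libraries. Total counts moved the median of all genes from 0.00 to 0.07 from ES to HB and from -0.08 to -0.17 from HE1 to HE2. Genes called lower in HB under every alternative and with each library left out were Cox7b, Cox6a1, Cox5a, Cox6b2, Cox6c, Cox7c and Ndufb9. Ndufa4l2 and Ndufa7 were so lower in HE1 than in HB, and Ndufa4l2, Cox7b2, Cox6c, Ndufa7, Cox5a, Cox6a1, Cox7b, Cox6b2 and Cox7c in HP than in ES. Every other call of a member, apart from Ndufa4l2 higher in HB, was lost in at least 1 fit. Of the 6 genes higher in HE2 than in HE1, 0 were called throughout.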
